A study of Danio rerio with 30 samples.

Results

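Segment S5 is the first of the caudal segments of the adult zebrafish intestine, and it was compared here with the mid-intestine, segments S3 and S4. The members were chosen by the sample titles: 4 arrays of S5 (replicates 1, 2, 3 and 5) against 5 arrays of S3 and 5 of S4, out of 30 arrays in the series. The intestine had been cut into 7 pieces of roughly equal length, numbered S1 to S7 in the rostral to caudal direction, from wild-type fish of about 1 year. Each array compared Cy5-labelled RNA of the same segment of 10 males, combined in a pool, with Cy3-labelled RNA of whole wild-type fish, male and female in a ratio of 9 to 1. S5, S3 and S4 shared this reference, the sex, the strain description and the dye orientation, and no group was treated. Levels are therefore log2 ratios to the whole fish, where 0 is the whole-fish level and 1 is a 2-fold higher level, and "difference" below means the S5 mean minus the average of the S3 and S4 means. In pooled tissue, a lower share of a cell type and less RNA per cell cannot be told apart.

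The intestine of zebrafish has no stomach before it, and its parts take up different nutrients. In mammals the ileum, the last stretch of the small intestine, takes up bile acids for return to the liver through an apical sodium-dependent transporter, a cytosolic binding protein and a basolateral exporter. In fish and in suckling mammals a caudal stretch of the intestine also holds enterocytes rich in lysosomes, which internalise whole protein from the lumen and digest it inside the cell. Dietary fat is mostly absorbed more rostrally, where enterocytes build triglyceride, store it in droplets and export it with apolipoproteins.

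The labelled tissue was checked against enterocyte markers, of which vil1, cdh17 and fabp2 did not pass the test between S5 and S3-S4. The markers apoa4a and slc15a1b were lower in S5, by differences of -2.6 (adjusted p = 0.000247) and -1.54 (adjusted p = 0.00314), and are described below. Their lowest S5 arrays, at 0.55 and 0.65, were still above the whole fish. vil1, which bundles the actin of the brush border, lay at 2.65, 2.74, 2.06 and 2.82 in S5 replicates 1, 2, 3 and 5, against 1.76 to 3.22 in the mid-intestine. A dimmer probe of vil1 differed by -0.85 (adjusted p = 0.184). cdh17, the intestinal cadherin, averaged 2.2 ± 0.41 in S5 (SD, n = 4), against means of 2.37 in S3 and 2.68 in S4. Both were above the whole fish on all 14 arrays. fabp2, the intestinal fatty acid binding protein, was also above it on each array (1.3 to 2.09 in S5, against 1.91 to 2.82), but its Cy5 spot was saturated on 3 of 4 S5 arrays and on 10 of 10 S3-S4 arrays, so its difference of -0.52 (adjusted p = 0.127) has no clear size. Between 53.38% and 60.92% of spots were above background in Cy5 in S5, against 37.83% to 69.55% in the mid-intestine, and 43 to 183 spots were saturated in Cy5 in S5, against 37 to 417. The number of arrays, 4 against 10, limits the precision. The study's arrays placed villin high in S1 to S5, while its real-time RT-PCR had villin decreasing in S5. By reporter line and in situ hybridisation, the study found fabp2 high in S1 to S4 and lost near the second turn of the intestine.

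Replicate 3 of S5 stood apart from the other S5 arrays. Its correlation with them over the tested probes averaged 0.815, where the other S5 arrays averaged 0.863 to 0.890. In the mid-intestine, S3 replicate 2 and S4 replicate 5 also correlated less with the other S3-S4 arrays, at 0.854 and 0.865, where the rest had 0.912 to 0.932. S5 replicate 3 had 534 genes at least 2-fold above the mean of the other S5 arrays, where replicates 1, 2 and 5 had 141, 59 and 93. Of 82 measured genes on a skeletal muscle list, 52 were among these 534. The median level of that list was -0.41 in S5 replicate 3, against -1.84, -2.29 and -2.13 in replicates 1, 2 and 5 and -2.28 to -0.95 in the mid-intestine. mylpfa, a fast myosin light chain, lay at -1.25 in replicate 3 and between -5.76 and -5.31 in the other S5 arrays. pvalb1, the calcium buffer parvalbumin of fast muscle, lay at -1.36 in replicate 3 and between -5.16 and -5.11 in the others. The departure was in the Cy5 signal of the segment, whose list median was 11.64 on the log2 scale in replicate 3, against 8.68 to 9.20 in the other S5 arrays and 8.84 to 9.62 in S3-S4. The Cy3 signal of the whole fish on the same spots was 11.68 in replicate 3 and 11.19 to 11.65 on the other 13 arrays. Neuronal and glial genes were also higher in this array, by a median of 0.61 over 48 genes, and keratin and junction genes by 0.42 over 60, while smooth muscle genes differed by -0.10 over 38 and all genes by 0.04. By its brightest probe, no skeletal muscle gene passed the test between S5 and S3-S4 with all arrays, and 2 were lower without replicate 3. A dimmer probe of the muscle creatine kinase ckma differed by -1.18 (adjusted p = 0.0107) with all arrays.

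**Figure D1:**
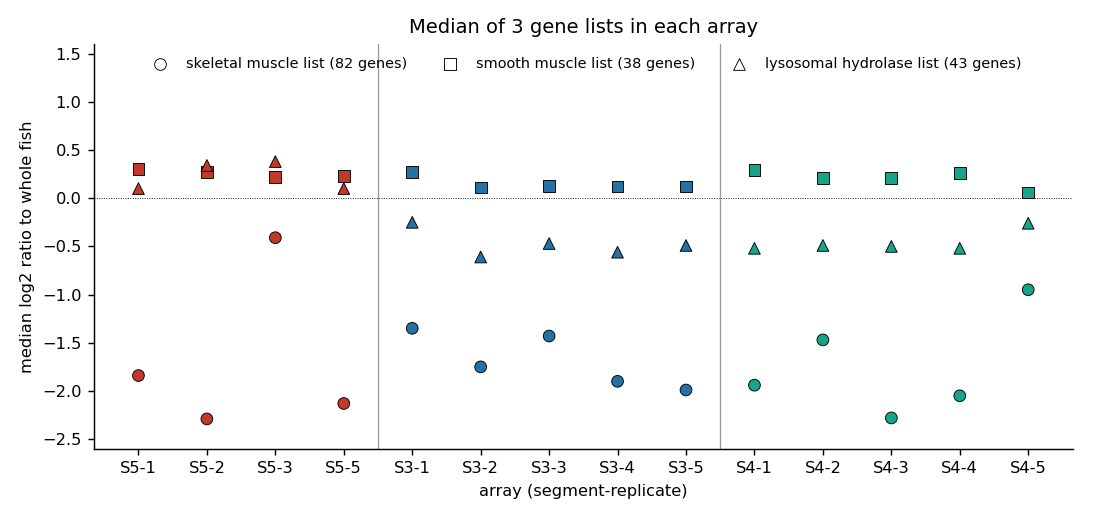
Median log2 ratio to the whole fish of 3 gene lists (vertical axis) in each of the 14 arrays (horizontal axis), with S5 at the left, then S3 and S4; circles are skeletal muscle genes, squares smooth muscle genes and triangles lysosomal hydrolases. The circle of S5 replicate 3 sits at -0.41, above the other 13 arrays, while its triangle at 0.38 lies with the other S5 arrays at 0.10 to 0.34.

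Of 18873 tested probes, 231 were higher in S5 than in S3-S4 (1.22%) and 181 were lower (0.959%), at an adjusted p under 0.05 in limma's moderated test. Together these were 412 probes (2.18%), of which 121 (0.641%) were higher and 70 (0.371%) lower by at least 2-fold. Counted by gene, with the brightest probe standing for each of 8607 genes, 131 were higher (1.52%) and 103 lower (1.2%), and the median difference over all genes was -0.04. The arrays of S5 and of S3-S4 did not overlap for 99 genes that were higher (1.15%) and 110 that were lower (1.28%), called or not. Of the 231 higher probes, 95 lay below the whole fish in S3-S4 and above it in S5, and 103 were at least 2-fold above the whole fish in S5. Of the 181 lower probes, 56 were at least 2-fold above the whole fish in S5, against 114 in S3-S4, and 40 lay below the whole fish in S5 and above it in S3-S4. Without S5 replicate 3 the counts were 211 higher and 135 lower, and without S5 replicate 2 they were 131 and 105. Without S3 replicate 2, whose spots were read over the smallest area of the 14 arrays, 283 were higher and 279 lower. Median centring in place of loess gave 253 higher and 62 lower, so the share of higher probes among those called was 80.3% with it and 56.1% as reported. Of the 412 called probes, 397 differed in the same direction in the Cy5 channel taken alone and 171 were called in it, and 4 also differed in the Cy3 channel of the common reference (fabp6, atp6v1f, ccl27a and a probe without a gene name), which had 7 such probes in all.

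**Figure D2:**
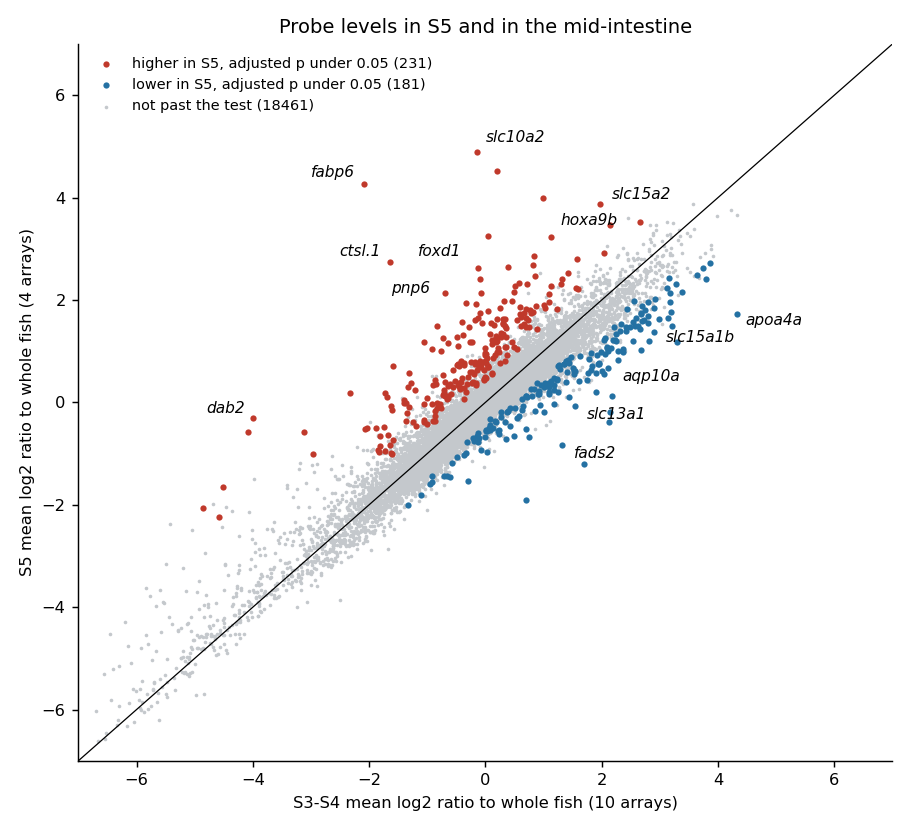
Mean log2 ratio to the whole fish of each tested probe in S3-S4 (horizontal axis, 10 arrays) and in S5 (vertical axis, 4 arrays), with the line of equal levels; red points are the 231 probes higher in S5, blue points the 181 lower and grey points the rest. The points farthest above the line are fabp6, slc10a2 and ctsl.1, and apoa4a lies at the right edge of the blue points.

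Genes that handle bile acids, fabp6 and slc10a2 among them, were higher in S5. Of 15 genes listed 6 were tested, 3 were higher and none lower, and the list's median difference was 1.27. slc10a2, the apical sodium-dependent bile acid transporter, had levels of 4.50, 5.38, 5.03 and 4.66 in S5 replicates 1, 2, 3 and 5, against a lowest of -0.48, a median of -0.16 and a highest of 0.26 in S3-S4. The transcript was thus near the whole-fish level in all 10 mid-intestine arrays and far above it in each S5 array. Its difference was 5.04 (SE 0.169, adjusted p = 1.97e-10), a 32.9-fold higher level.

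fabp6, the ileal bile acid binding protein, had levels of 4.98, 3.89, 3.24 and 4.91 in S5, against a lowest of -3.93, a median of -2.39 and a highest of -0.09 in S3-S4. The groups did not overlap and the difference was 6.35 (SE 0.642, adjusted p = 4.3e-05). The Cy3 spot of the common reference also differed between these arrays, by -3.73 on the log2 scale, and the Cy5 spot alone by 2.62 (adjusted p = 0.0739 for that channel). The Cy5 spot was saturated on 4 of 4 S5 arrays and 2 of 10 S3-S4 arrays, so the size of its difference is not well measured. slc51a, a subunit of the basolateral organic solute exporter, had 1.42, 1.46, 1.52 and 1.52 in S5, against -0.93 to 0.45 in S3-S4 with a median of -0.31. Its difference was 1.77 (SE 0.160, adjusted p = 1.47e-05), and the S5 arrays had an SD of 0.048 (n = 4).

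The other 3 tested genes of the list did not pass. The differences were 0.77 for nr1h4, the bile acid receptor FXR (adjusted p = 0.104), 0.53 for the organic anion transporter slco2b1 (adjusted p = 0.315) and -0.50 for abcc2, an apical exporter of conjugates (adjusted p = 0.201). The count was 3 without S5 replicate 3 as well.

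Among the lists examined, the one with the most higher genes was that of lysosomal hydrolases. It also holds other lysosomal proteins, among them the activators psap and gm2a, the carrier npc2.1 and the reductase ifi30a. Of 43 tested genes of this list, 17 were higher in S5 and none was lower. The median difference was 0.47, and 14 had no overlap between the arrays. Without S5 replicate 3 the count was 16, and without S5 replicate 2 or 5 it was 13. In the Cy5 channel alone it was 12. The median level of the list was 0.10, 0.34, 0.38 and 0.10 in S5 replicates 1, 2, 3 and 5, against -0.61 to -0.25 in the 10 mid-intestine arrays, so the list's median was above the whole fish in each S5 array and below it in each S3-S4 array.

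ctsl.1, a cathepsin L cysteine protease, led the list. It had 2.64, 2.99, 3.24 and 2.13 in S5, against a lowest of -2.25, a median of -1.63 and a highest of -1.08 in S3-S4. All S5 arrays were above the whole fish and all S3-S4 arrays below it, with a difference of 4.40 (SE 0.227, adjusted p = 5.28e-08) and a saturated Cy5 spot on 2 S5 arrays. lgmn, the asparaginyl endopeptidase legumain, had 2.42, 2.94, 2.73 and 1.54 in S5, against -0.43 to 0.40 in S3-S4, and differed by 2.5 (SE 0.226, adjusted p = 1.47e-05), also with a saturated Cy5 spot on 2 S5 arrays. Other cathepsins followed: ctsz differed by 1.80, ctsh by 1.76, the carboxypeptidase ctsa by 1.04 and ctsc, which trims dipeptides and activates other proteases, by 0.95 (adjusted p = 0.00593).

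Serine carboxypeptidases moved with the cathepsins. scpep1 had 0.98, 1.32, 0.84 and 1.03 in S5, against -1.45 to 0.36 with a median of -1.12 in S3-S4, and its 2 probes gave differences of 1.97 and 1.99. cpvl, of the same enzyme family, had 1.17, 2.24, 1.42 and 1.14 in S5, against -1.0 to -0.59 in S3-S4, and differed by 2.32 (adjusted p = 2.92e-06). The hydrolase list did not include cpvl. A dimmer second probe of cpvl differed by -0.31 (adjusted p = 0.475), so the probes of this gene disagree.

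The 17 called genes also included enzymes that remove sugars and degrade sphingolipids. The alpha-L-fucosidases fuca1.2, fuca1.1 and fuca2 differed by 2.51, 1.79 and 1.02, the galactosylceramidases galca and galcb by 1.36 and 0.51 and the beta-galactosidase glb1 by 0.91. The sphingolipid activators psap and gm2a differed by 0.97 and 1.23, and npc2.1, which carries cholesterol out of the lysosome, by 1.04. ifi30a, a lysosomal thiol reductase that opens disulfide bonds of proteins, differed by 2.22 (adjusted p = 0.00104), with 0.16, 1.80, 1.87 and 0.85 in S5 against -1.53 to 0.13 in S3-S4. fuca1.2 overlapped between the groups, since S5 replicate 5 lay at -0.97 and S4 replicate 2 at -0.76. In the Cy5 channel alone, ifi30a differed by 1.45 (adjusted p = 0.56 for that channel) and fuca1.2 by 1.34.

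Acidification and uptake showed smaller groups. Of 30 tested genes of the lysosomal membrane and its proton pump, 6 were higher in S5 and none lower, with a median difference of 0.36. All 6 encode subunits of the V1 part of the vacuolar ATPase, which pumps protons into lysosomes: atp6v1f, atp6v1c1b, atp6v1h, atp6v1g1, atp6v1ba and atp6v1d. This was not set against the share of V1 subunits among the 30 tested. atp6v1g1 was not called in 13 of 27 alternatives, while another probe of it also passed (0.50, adjusted p = 0.0344). atp6v1c1b had 0.37, 0.97, 0.79 and 0.67 in S5, against -0.65 to -0.20 in S3-S4, and differed by 1.16 (SE 0.118, adjusted p = 4.39e-05). atp6v1f differed by 3.5, with -2.96 in the Cy3 channel of the reference and 0.54 in the Cy5 channel (adjusted p = 0.133 for that channel). The count was 2 in the Cy5 channel alone, 5 without S5 replicate 3 and 3 without S5 replicate 2, S3 replicate 4, S4 replicate 3 or S4 replicate 4.

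dab2, an adaptor that links endocytic receptors to clathrin, was the most changed gene of protein endocytosis. It had -0.45, 0.17, -0.01 and -0.91 in S5, against a lowest of -4.60, a median of -4.02 and a highest of -3.24 in S3-S4. It thus reached about the whole-fish level in S5 and was far below it in the mid-intestine, with a difference of 3.69 (SE 0.252, adjusted p = 9.4e-07). snx2, a sorting nexin of endosomes, differed by 1.58 (adjusted p = 4.19e-05). Of 19 tested genes of this list 2 were higher and 1 lower, and the median was 0.12. The lower one, the secreted phospholipase family member pla2g12b, is a gene of lipoprotein assembly and is counted again among the lipid genes below. The clathrin heavy chains cltca and cltcb differed by 0.27 and 0.15 and rab7a, rab5aa and rab5ab by -0.03, -0.01 and 0.11, none past the test. The receptor genes cubn and amn were not measured here.

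**Figure D3:**
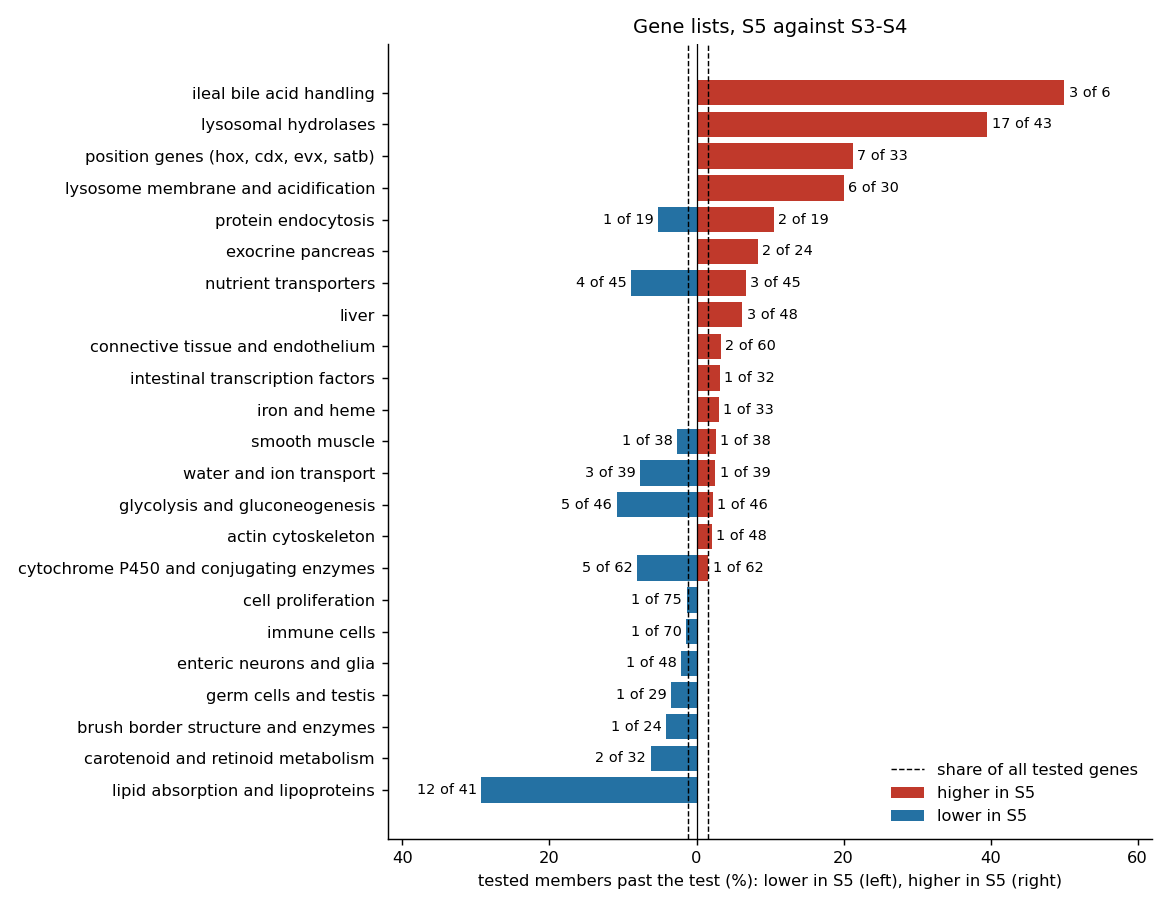
Share of tested members past the test (horizontal axis, percent) for each gene list with at least 1 such member (vertical axis), with genes lower in S5 to the left and higher to the right; dashed lines mark the shares over all 8607 tested genes, 1.52% higher and 1.2% lower. Bile acid handling (3 of 6), the lysosomal hydrolase list (17 of 43) and position genes (7 of 33) extend farthest to the right and lipid absorption (12 of 41) farthest to the left.

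Other genes among the 12 highest had no list in common. pnp6, a purine nucleoside phosphorylase, had 2.43, 2.35, 1.85 and 1.92 in S5, against -1.15 to -0.06 in S3-S4, and differed by 2.84 (adjusted p = 8.12e-07). foxd1, a forkhead transcription factor, had 1.85, 3.2, 2.25 and 3.16 in S5, against -0.47 to 0.22, and differed by 2.74 (adjusted p = 2.92e-06). In S3-S4 its Cy5 spot was above background on 2 of 10 arrays, as was that of pnp6 on 3, so their mid-intestine levels are close to the detection limit. prlra, a prolactin receptor, had 1.02, 2.1, 1.43 and 1.71 in S5, against -1.33 to 0.79, and differed by 1.97 (adjusted p = 0.000301). The transcription factor mafbb differed by 1.84 (adjusted p = 0.00057), the only 1 of 32 tested intestinal transcription factors past the test, though a dimmer probe of it differed by 0.35 (adjusted p = 0.57).

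Genes of position along the body were the next list. Hox genes encode transcription factors whose clusters are expressed along the body axis, with the later-numbered groups more caudal. Of 33 tested hox, cdx, evx, satb, meis and pbx genes, 7 were higher in S5 and none lower, with a median of 0.44. These were hoxa9b, hoxd9a, hoxc3a, hoxd10a, hoxa10b, hoxc10a and hoxb3a. Against S4 alone, a comparison with fewer arrays, 3 of the 33 were higher and none lower. Of the 7 genes higher than in S3-S4, 5 belong to groups 9 and 10, which was not set against the share of those groups among the 33 tested. The count against S3-S4 was 9 without S5 replicate 3, 5 without S5 replicate 5 and 4 without S5 replicate 2.

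hoxa9b had 2.63, 3.51, 3.2 and 3.55 in S5, against 2.56, 0.96, 2.57, 2.40 and 0.67 in S4 and 0.06 to 0.82 in S3. The S4 arrays were spread between the levels of S3 and S5. The gene differed by 2.08 from S3-S4 (SE 0.333, adjusted p = 0.00252), by 2.78 from S3 alone (adjusted p = 0.000772) and by 1.39 from S4 alone (adjusted p = 0.132), while S4 differed from S3 by 1.39 (adjusted p = 0.369). hoxd9a had 2.79, 2.94, 2.5 and 3.24 in S5, against 2.24, 1.38, 2.67, 2.14 and 0.63 in S4 and -0.99 to 0.42 in S3, with a difference of 2.04 from S3-S4 (adjusted p = 0.00225). The 2 genes were lowest within S4 in replicate 5, an array that correlated less than most with the other S3-S4 arrays (0.865). hoxc3a showed the other pattern, with 1.36, 1.46, 1.24 and 2.1 in S5 against -0.24 to 0.44 in all S3 and S4 arrays (difference 1.45, adjusted p = 4.84e-05). Genes of groups 11 and 13 had smaller differences, of 1.15 for hoxc13a (adjusted p = 0.0523), 0.64 for hoxc11a and 0.56 for hoxd13a, and cdx1a and cdx4 differed by 0.38 and 0.95 with adjusted p values of 0.426 and 0.254.

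Transporters of nutrients went both ways. Of 45 tested, 3 were higher and 4 lower in S5, with a median of 0.03, and the counts were 4 and 4 without S5 replicate 3. slc1a1, a transporter of glutamate and aspartate, had 3.75, 4.48, 3.24 and 4.48 in S5, against 1.91, 1.62, 3.51, 3.37 and 0.54 in S4 and -0.83 to 0.08 in S3. S4 replicates 3 and 4 reached the S5 range, and the difference from S3-S4 was 3.00 (adjusted p = 0.0013). slc44a4, of the choline transporter family, was even in S5 at 1.58, 1.6, 1.51 and 1.52, against -0.78 to 0.43 in S3-S4 (difference 1.6, adjusted p = 6.06e-05), and the glucose transporter slc2a8 differed by 0.94.

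A pair of peptide transporter genes went in opposite directions. slc15a2, the high-affinity transporter PEPT2, which the transporter list did not include, had 3.85, 3.93, 3.60 and 4.15 in S5, against 2.90 to 3.51 in S4 and -0.69 to 2.09 in S3. S4 differed from S3 by 2.5 (adjusted p = 0.0716), S5 differed from S4 by 0.66 (adjusted p = 0.663) and S5 from S3-S4 by 1.91 (adjusted p = 0.00938). slc15a1b, the low-affinity transporter PEPT1, had 1.79, 1.56, 0.65 and 1.45 in S5, against a lowest of 1.92, a median of 2.98 and a highest of 3.42 in S3-S4, and was lower in S5 by 1.54 (difference -1.54, SE 0.252, adjusted p = 0.00314). slc13a1, a sodium-sulfate cotransporter, had 1.11, -0.49, -0.66 and -0.28 in S5, against 1.21 to 2.03, and differed by -1.62 (adjusted p = 0.00182). S5 replicate 1 was closest to the mid-intestine for this gene. The vitamin transporter slc5a6b differed by -1.45 and the amino acid transporter slc43a2b by -1.14, although other probes of these genes differed by -0.22 (adjusted p = 0.772) and -0.89 (adjusted p = 0.0567). slc43a2b did not pass in 8 of 27 alternatives, among them leaving out S5 replicate 3. The 4 lower transporters counted without that array are therefore not the same 4.

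Genes of lipid absorption and lipoprotein assembly were lower in S5. Of 41 tested, 12 were lower and none was higher, 11 genes had no overlap between the groups, and the median difference was -0.68, with 1 gene of 41 above 0. The count was 12 without S5 replicate 3 as well, but 4 when the arrays were scaled to a common spread and 7 in the Cy5 channel alone. The median level of the list was 1.75, 1.44, 0.71 and 1.11 in S5 replicates 1, 2, 3 and 5, against 1.74 to 2.14 in S3-S4. The list thus stayed above the whole fish in S5, and S5 replicate 1 touched the lower end of the mid-intestine.

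apoa4a, an apolipoprotein made by fat-absorbing enterocytes, had 2.66, 1.63, 0.55 and 2.04 in S5, against a lowest of 3.33, a median of 4.30 and a highest of 5.16 in S3-S4. It remained above the whole fish in each S5 array and differed by -2.6 (SE 0.315, adjusted p = 0.000247). Its Cy5 spot was saturated on 3 S3-S4 arrays. fads2, a fatty acid desaturase, had -0.11, -1.04, -1.47 and -0.73 in S5, against 0.70 to 1.93 in S3-S4, and so was below the whole fish in all S5 arrays and above it in all others. It differed by -2.16 (SE 0.205, adjusted p = 2.64e-05), and its Cy5 spot was saturated on 2 S3-S4 arrays.

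The lower genes covered successive steps of fat handling. For fatty acid activation, acsl4a differed by -0.98 and acsl5 by -0.83. For triglyceride synthesis, gpat3, which adds the first fatty acid, differed by -1.13 and dgat2, which adds the last, by -1.03. For droplets, the coat proteins plin2 and plin3 differed by -1.23 and -1.22. plin3 had 1.75, 2.05, 1.79 and 2.21 in S5 against 2.73 to 3.48 in S3-S4 (SE 0.130, adjusted p = 6.86e-05). For export, mttp, which loads lipid onto lipoproteins, differed by -1.04 (adjusted p = 0.00327), pla2g12b, needed for lipoprotein assembly in zebrafish, by -1.25, apoeb by -1.19 and the cholesterol exporter abca1b by -1.23. apoa1a, the main HDL apolipoprotein, differed by -0.77 with an adjusted p of 0.124, and its Cy5 spot was saturated on 3 S5 and 10 S3-S4 arrays.

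**Figure D4:**
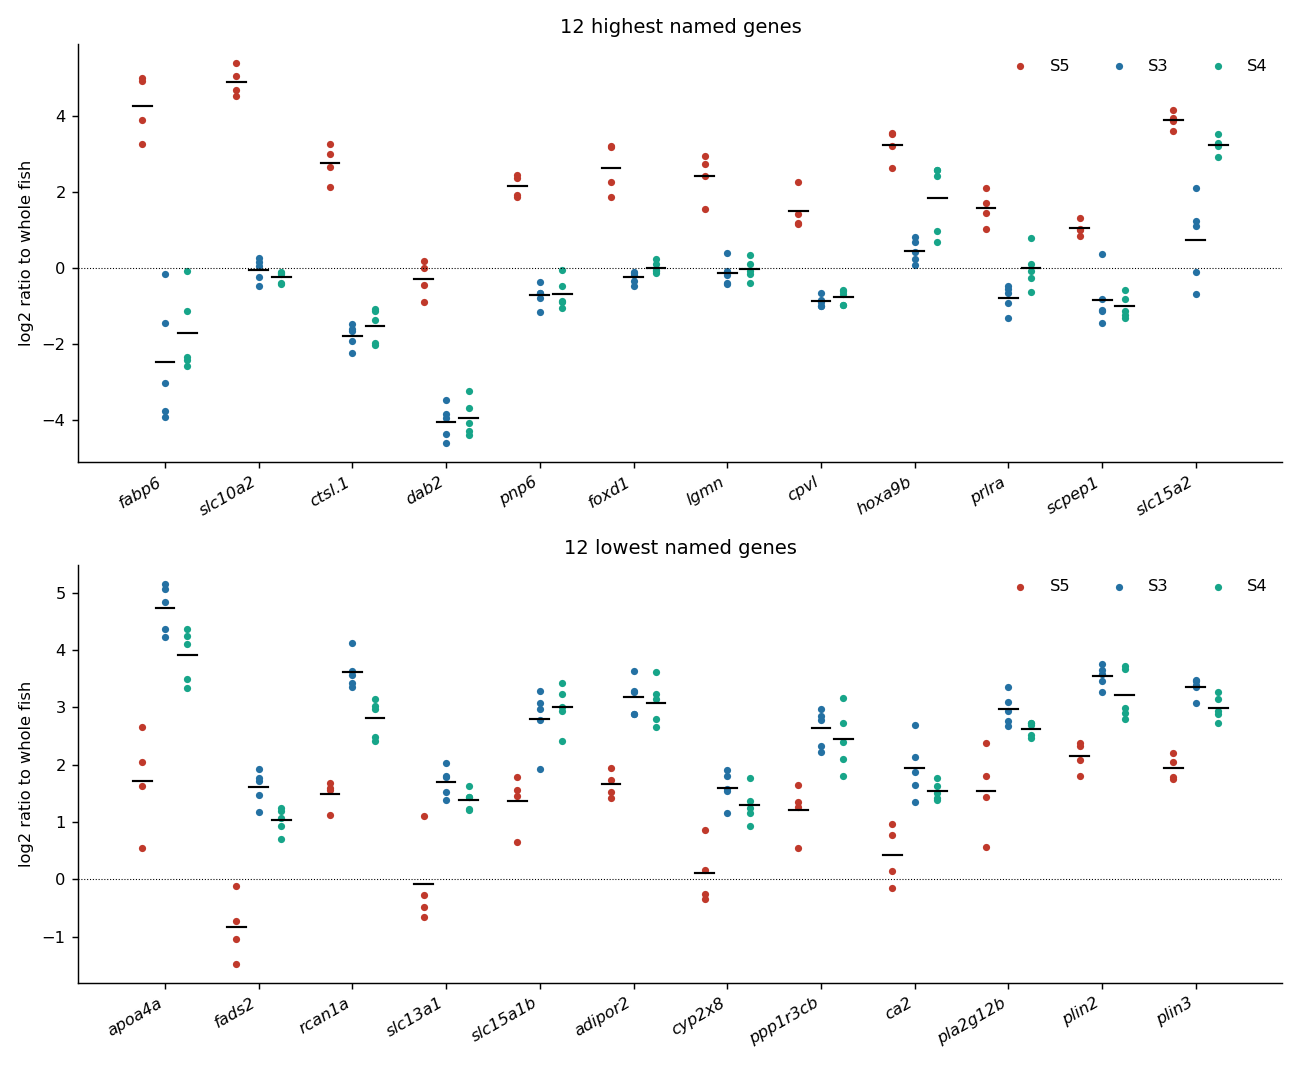
Log2 ratio to the whole fish (vertical axis) of the 12 highest (upper panel) and 12 lowest named genes (lower panel), with 1 point per array and a bar at the mean; within each gene S5 stands at the left, then S3 and S4. In each gene the S5 points lie beyond all S3 and S4 points, by which the genes were chosen, and for slc15a2 the S4 points, at 2.90 to 3.51, also lie above the S3 points, at -0.69 to 2.09.

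Metabolic enzymes outside lipid absorption were lower in smaller numbers. Of 46 tested genes of glycolysis and gluconeogenesis, 5 were lower and 1 higher, with a median of -0.19. The lower ones were the glycerol-3-phosphate dehydrogenases gpd1c and gpd1b at -1.09 and -0.84, lactate dehydrogenase ldha at -0.93, mdh2 at -0.57 and triosephosphate isomerase tpi1b at -0.56, and the higher one was the enolase eno1b at 1.4. A dimmer probe of gpd1c differed by -0.09 (adjusted p = 0.822). For eno1b the Cy5 channel alone differed by 0.12 (adjusted p = 0.904 in that channel). Without S5 replicate 3, and likewise without S5 replicate 5, 3 were lower, with median centring 1 was, and in the Cy5 channel alone none was. eno1b did not pass without S5 replicate 2 or 3. Of 62 tested cytochrome P450 and conjugating enzymes, 5 were lower and 1, cyp4t8, was higher at 1.1, with a median of -0.25. The lower ones were cyp2x8 at -1.34 (adjusted p = 0.00232), cyp2ad2, cyp1a, cyp2n13 and cyp3a65, and 2 were called without S5 replicate 2, S5 replicate 3 or S4 replicate 4 and 3 without S3 replicate 1, 3 or 5, S4 replicate 1, 2 or 3 or S5 replicate 5. With arrays scaled to a common spread 1 was called, and with median centring or in the Cy5 channel alone 2. cyp2x8 had 0.86, -0.25, -0.34 and 0.17 in S5, against 0.93 to 1.91 in S3-S4. Against S4 alone, 2 glycolysis and gluconeogenesis genes were lower. Of the P450 and conjugating enzymes, 1 was lower and 1 higher against S4. Of 74 oxidative phosphorylation subunits and 43 genes of fatty acid oxidation none passed the test, with medians of -0.17 and -0.16, and of 67 cytosolic ribosomal proteins none passed, with a median of 0.08. These counts of 0 are those of limma's test over all probes, in which 2665 probes (14.1%) had an unadjusted p under 0.05.

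Among the remaining lowest genes, rcan1a, a regulator of the phosphatase calcineurin, had 1.6, 1.55, 1.13 and 1.68 in S5, against 2.41 to 4.12 in S3-S4, and differed by -1.73 (adjusted p = 4.21e-05). adipor2, an adiponectin receptor, had 1.94, 1.74, 1.52 and 1.42 in S5 against 2.65 to 3.63 (difference -1.48, adjusted p = 0.000306), and ppp1r3cb, which directs a phosphatase to glycogen, differed by -1.33 (adjusted p = 0.00735). Of 39 tested genes of water and ion transport, 3 were lower, namely aqp10a (-1.44), the carbonic anhydrase ca2 (-1.31) and the potassium channel kcnk5b (-0.78), and 1 was higher, the aquaporin aqp8a.1 (0.68). aqp8a.1 did not pass in 18 of 27 alternatives, among them leaving out S5 replicate 3, and another probe of it differed by 0.44 (adjusted p = 0.23). Without S5 replicate 3, or any of S5 replicates 2 and 5, S3 replicate 4 and S4 replicates 1 and 4, 1 of the 3 lower genes passed. aqp10a had means of 4.15, 3.57, 2.90, 1.31 and 0.66 in S1, S2, S3, S4 and S5.

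aqp3a, a water and glycerol channel, and cfl1, which severs actin filaments, were examined because the study used them to tell the caudal segments from the others. The study described cfl1 as mainly expressed in S5 to S7, by array and real-time RT-PCR, and the rise of aqp3 in S6 and S7. S6 and S7 were not part of the comparison here, and neither gene passed the test in S5 against S3-S4. aqp3a had -4.27, -4.20, -1.34 and -4.83 in S5, against -4.85 to -3.22 in S3-S4 (difference 0.54, SE 0.500, adjusted p = 0.701). cfl1 had -2.62, -1.72, -0.56 and -2.14 in S5, against -2.73 to -1.95 (difference 0.53, SE 0.274, adjusted p = 0.414). Other probes differed by 0.74 for aqp3a (adjusted p = 0.549) and by -0.05 and 0.13 for cfl1 (adjusted p = 0.895 and 0.682). For both genes, the highest of the 14 arrays was S5 replicate 3, the array with the high muscle genes. aqp1a.1 differed by 0.03 (adjusted p = 0.944).

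Genes of neighbouring organs and other gut cells were examined as lists. Of 24 tested genes of exocrine pancreas 2 were higher in S5, the proteases cela1.1 (1.08) and ctrb.3, with a list median of 0.63. The median level of this list was 1.46, 1.23, 1.4 and 1.97 in S5, 1.13 to 1.77 in S4 and -0.25 to 0.51 in S3, so it separated S3 from both other segments. The Cy5 spots of ctrb.3 and of the pancreas genes prss1, ela2, cpa5 and ctrb.1 were saturated on all 14 arrays, so their levels and differences have no clear size. Those of cela1.1 were saturated on 2 of 4 S5 and 6 of 10 S3-S4 arrays. Saturation therefore also limits the list median. Another probe of cela1.1 differed by 0.27 (adjusted p = 0.836). No pancreas gene passed with S3 and S4 merged or in the Cy5 channel alone, and the count was 1 without S5 replicate 1, 3 or 5, 4 without S4 replicate 2 and 3 without S4 replicate 3 or S5 replicate 2. Of 48 liver genes 3 were higher (tdo2b, c3a.2 and cp, at 0.94, 0.91 and 0.88), with a median of 0.36. Their list median was -0.64 to -0.13 in S5, -1.01 to -0.10 in S4 and -1.24 to -0.58 in S3. The median step of the list from S3 to S4 was 0.62, and no liver gene passed against S4 alone. In S5 against S3-S4, none passed without S5 replicate 1, 3 or 5, S4 replicate 2 or 4 or S3 replicate 3 or 4. Without S3 replicate 2 or 5 or S4 replicate 3, 1 liver gene passed. The defining liver genes fabp10a, fga, ttr and serpina1 did not pass the test. A dimmer probe of c3a.2 differed by 0.27 (adjusted p = 0.642). The part of pancreas or liver tissue in the results above was not tested.

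Other cell type lists had 1 or 2 genes past the test or none, beside shares of 1.52% higher and 1.2% lower over all 8607 tested genes. In either direction, 5.26% of smooth muscle, 1.43% of immune, 2.08% of neuronal and glial and 3.33% of connective tissue and endothelium genes passed. For brush border and proliferation genes the shares were 4.17% and 1.33%. Counts this small are not read as results about these cell types. Of 38 smooth muscle genes rbpms2a was higher (0.74) and acta2, smooth muscle actin, was lower (-0.57, adjusted p = 0.0477), with a median of 0.08. Of 70 immune genes 1 was lower, the macrophage gene mfap4.1 (-1.20), with a list median of -0.09. The immune markers coro1a, lyz and mpeg1.1 did not pass. mpeg1.1, also a macrophage gene, had 0.23, 0.92, 0.36 and 1.68 in S5, against 0.09 to 1.24 in S3-S4. Of 48 neuronal and glial genes 1 was lower, the fatty acid binding protein fabp7a (-1.66). Of 60 genes listed for connective tissue and endothelium, timp2a (0.82) and igfbp1a (1.05) were higher. The connective tissue markers col1a2, sparc and dcn did not pass. For timp2a 2 other probes differed by 0.24 and 0.28 with adjusted p values of 0.549 and 0.156. acta2 did not pass in 21 of 27 alternatives, igfbp1a in 12, without S5 replicate 3 among them for both, and rbpms2a did not pass without S5 replicate 2. Of 24 brush border genes only tm4sf5 (-0.96) passed, and of 75 proliferation genes only smc4 (-0.51). Dimmer probes of smc4 differed by -0.13 (adjusted p = 0.836) and -0.51 (adjusted p = 0.0884). The goblet cell gene agr2 differed by 0.44 (adjusted p = 0.281), and a dimmer probe of it by -0.33 (adjusted p = 0.357). On the germ cell list star, a mitochondrial cholesterol carrier better known from steroid-producing cells, was lower (-1.21, adjusted p = 0.0019), with the list's median at -0.24 over 29 genes. Lists of enteroendocrine cells, goblet cells, blood cells, keratins and junctions, stress response and proteasome had no gene past the test. On 3 further lists the genes past the test were capgb, an actin-capping protein (0.67), the retinoid-handling enzymes rdh12l (-1.01) and sdr16c5b (-0.89), and cp again, which is also an iron oxidase. Without S5 replicate 3, capgb, sdr16c5b and cp did not pass, and 1 enteroendocrine gene was higher.

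The position of the change along the gut was examined by comparing S5 with each mid-intestine segment and S4 with S3. Against S4, 124 probes were higher (0.657%) and 70 lower (0.371%). Against S3, 267 were higher (1.41%) and 202 lower (1.07%). Between S4 and S3 limma's test called 0 probes higher (0%) and 2 lower (0.0106%), both without a gene name, while 1004 (5.32%) had an unadjusted p under 0.05. These comparisons share their arrays. The difference between the 2 steps, S5 minus S4 against S4 minus S3, was tested directly, and 18 probes had a larger rise at the second step (0.0954%) and 1 unnamed probe a smaller one (0.0053%). The named ones were slc10a2, ctsl.1, dab2, pnp6, ctsz (2 probes), cpvl by its brighter probe, scpep1 by its dimmer probe, foxd1, snx2, atp6v1c1b, elovl1b, an enzyme of fatty acid elongation, and zgc:110239. slc10a2 had the largest such change at 5.35 (adjusted p = 8.5e-07), with means of 4.89 in S5, -0.25 in S4 and -0.05 in S3. The count was 2 without S4 replicate 4, 4 to 7 without S4 replicate 1, 2 or 3, S3 replicate 1, 3, 4 or 5 or S5 replicate 2, 11 without S5 replicate 3 and 13 to 18 without each of the other arrays. With the replicate number added to the fit as a block, the count was 5.

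The same genes were set against the rostral segments. From S1 to S5 the means of slc10a2 were -0.45, -0.16, -0.05, -0.25 and 4.89, and those of ctsl.1 were -1.63, -1.34, -1.78, -1.52 and 2.75, but replicate 1 of S1 and of S2 stood apart for ctsl.1, at 0.56 and 0.4, where the other S1 and S2 arrays lay between -2.38 and -1.60. slc15a2 had -1.46, -1.42, 0.72, 3.22 and 3.88, and slc1a1 had -0.20, -0.09, -0.22, 2.19 and 3.99, so their S4 means lay between those of S3 and S5. apoa4a had 4.59, 4.37, 4.73, 3.91 and 1.72, and fads2 had 1.90, 1.82, 1.61, 1.03 and -0.84. In the fit of the 24 arrays of S1 to S5, S5 differed from S1-S2 by 5.2 for slc10a2 (adjusted p = 3.77e-13), 4.23 for ctsl.1 (adjusted p = 4.5e-07), 5.32 for slc15a2 (adjusted p = 1.61e-09), -2.76 for apoa4a (adjusted p = 5.2e-07) and -2.70 for fads2 (adjusted p = 3.28e-09). dab2 was less even before S5, with means of -2.53, -4.45, -4.05, -3.94 and -0.30. Its S1 arrays lay between -3.96 and -0.18, and the highest of them, replicate 5, was inside the S5 range of -0.91 to 0.17.

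**Figure D5:**
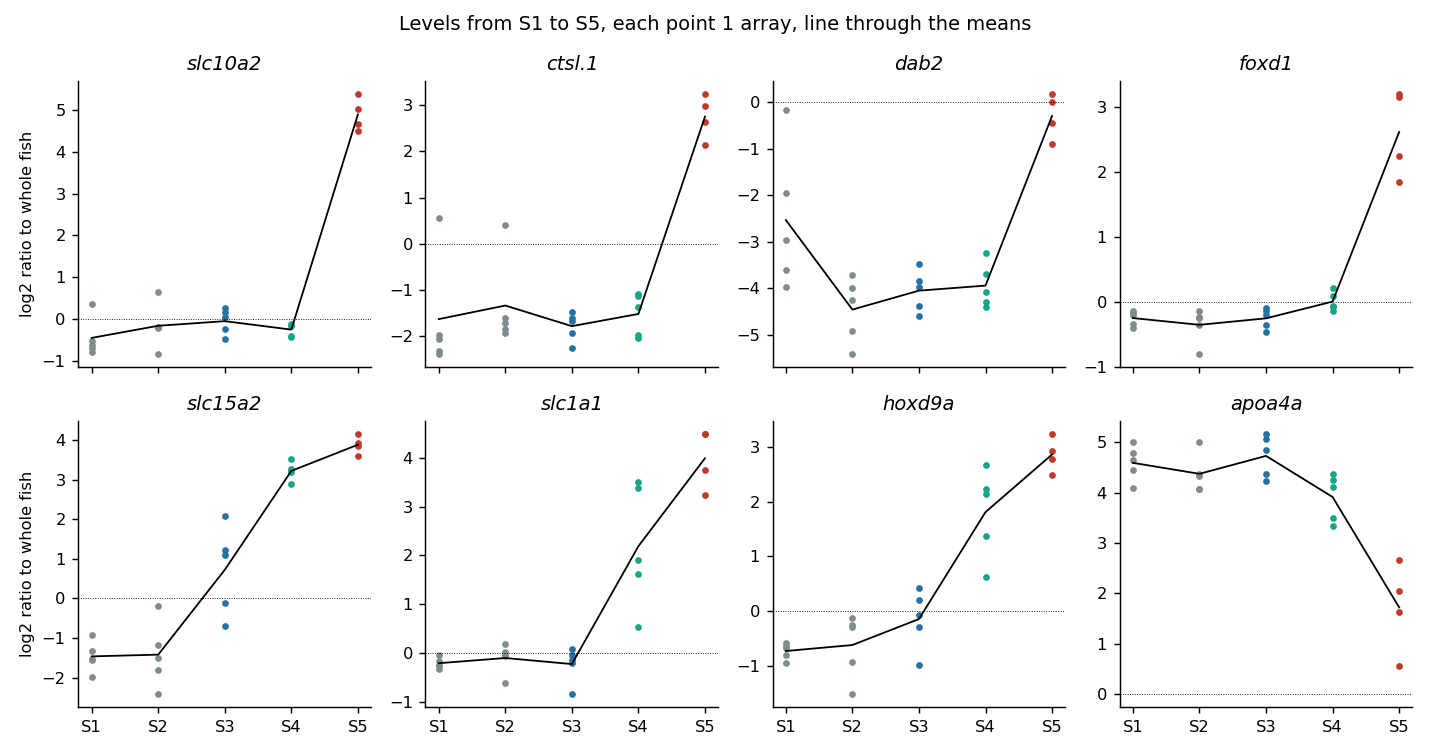
Log2 ratio to the whole fish (vertical axis, its range set per gene) of 8 genes in segments S1 to S5 (horizontal axis), with 1 point per array and a line through the segment means. slc10a2, ctsl.1 and foxd1 have S4 means near their S1 means, slc15a2, slc1a1 and hoxd9a have S4 means between those of S3 and S5, and apoa4a has its lowest mean in S5.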

How the data were processed

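Per the labels, Cy5-labelled intestinal RNA and Cy3-labelled whole-fish RNA were hybridised together to spotted oligonucleotide arrays, all in 1 dye orientation. The authors deposited the mean and median intensity of each spot and of its background in both dyes, not normalized, and log2 values of each spot in a series table. Per the study's methods, the authors normalized by LOWESS in Gene Cluster, first inside an array and then between arrays, and the centring of the table is not given in the sources used here. These were used as an alternative only. From the intensities, background was corrected by normexp (offset 50) and log2 ratios were normalized by loess within each array in limma 3.58.1 (R 4.3.3, data.table version 1.17.8, statmod version 1.5.0). The 245 control spots were left out. A probe was tested when it exceeded background by over 2 SD in either dye on 3 arrays of a segment, and a spot median of 65535 was counted as saturated. S3, S4 and S5 were fitted together with Benjamini-Hochberg adjustment over all tested probes. Symbols of 11724 among 23232 spots were matched to the RefSeq gene table of the assembly GRCz12tu for current names, and 8022 were updated, 3568 were current and 134 were kept as given.

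Named genes are the 12 highest and 12 lowest whose arrays did not overlap between groups and whose Cy5 was above background throughout the higher group, up to 4 called genes in each direction of each list, genes the study names and cell type markers. Further list members, the genes past the step test and ccl27a were named after their values were seen. Members and lists were chosen with earlier results of these data known. Counts for the Cy5 channel alone and list counts without S5 replicate 3 were added after the data were seen. The markers muc2.1, pyya, tagln, cnn1b, hbaa1, ptprc and phox2bb were not matched to a probe, and desmb, atp2a1 and elavl4 were not tested. No 2 arrays held identical Cy5 values. S5 replicate 4 was not analysed here.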

Additional observations from a re-analysis of the deposited data

Results flagged for a closer look

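Among the named genes, 318 groups of 4 or 5 arrays were examined for an array far from its group, and 21 had one, where chance alone gives about 1 in 20. In S5 replicate 3, mylpfa lay at -1.25 with the nearest S5 array at -5.31, and pvalb1 at -1.36 with the nearest at -5.11. The connective tissue genes col1a2 and sparc lay at -1.16 and -0.14 in the same array, with the nearest at -2.88 and -1.68. In S5 replicate 5, fuca1.2 lay at -0.97, where the other S5 arrays were at 0.53 to 0.61. In S5 replicate 1, gpd1c lay at 1.98 with the nearest array at 1.35, and capgb at -0.65 with the nearest at -0.33. In S4 replicate 2, fuca1.2 lay at -0.76 (nearest S4 array -2.06), gpd1b at 1.73 (nearest 1.15) and cela1.1 at 1.86 (nearest 1.06). In S3 replicate 2, snx2 lay at 0.18 (nearest S3 array -0.42), mafbb at 1.13 (nearest -0.09) and star at 1.64 (nearest 0.87). The endocrine gene scg3 lay at 1.66 in S3 replicate 2 (nearest 0.16) and at 0.61 in S4 replicate 3 (nearest 0.09), and the glial gene gfap at -0.03 in S3 replicate 2 (nearest 0.46). In S3 replicate 1, ifi30a lay at -1.53 (nearest -1.14) and mdh2 at 1.07 (nearest 0.76). The pancreatic gene cpa5 lay at 0.61 in S4 replicate 1 (nearest 1.16), ctrb.3 at 1.94 in S4 replicate 3 (nearest 1.17), and smc4 at -0.53 in S4 replicate 5 (nearest -0.94). What set these arrays apart was not tested.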

How the results depend on the processing

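Loess with normexp gave 231 probes higher and 181 lower in S5 than in S3-S4, 124 and 70 against S4, 267 and 202 against S3, 0 and 2 for S4 against S3, and 18 and 1 for the change of step. Counts that moved by over 1.5 times follow, and the cause was not tested unless fewer arrays or a stricter threshold made them. Median centring gave 62 lower, 15 lower against S4, 68 lower against S3, 0 lower for S4 against S3 and 6 and 0 for the step. Scaling the arrays to a common spread gave 31 lower against S4, 2 higher for S4 against S3 and 11 and 0 for the step. The authors' table gave 97 lower, 77 higher and 24 lower against S4, 125 lower against S3, 2 and 0 for S4 against S3 and 7 and 0 for the step. Without background correction 3 were higher in S4 than in S3 and 0 had a lower step, and with Cy5 required above background 1 was higher in S4 than in S3. With the S1 to S5 arrays in the fit, 278 were lower, 108 lower against S4, 313 lower against S3, 3 higher for S4 against S3 and 29 and 3 past the step test. With all 30 arrays, 3 were higher in S4 than in S3 and 0 had a lower step. Array weights gave 311 lower, 193 and 135 against S4, 389 lower against S3, 23 and 7 for S4 against S3 and 47 and 12 for the step. The unmoderated model gave 0 lower for S4 against S3 and 6 higher for the step. A Bonferroni threshold of 0.1 left 40 and 9, 27 and 1 against S4, 34 and 11 against S3, 1 and 0 for S4 against S3 and 3 and 0 for the step. The Cy5 channel alone, chosen after seeing the data, gave 139 and 85, 82 and 38 against S4, 131 and 67 against S3, 5 and 1 for S4 against S3 and 9 and 0 for the step. Leaving out 1 array at a time gave 131 to 283 higher and 105 to 279 lower, 70 to 148 and 27 to 96 against S4, 173 to 287 and 127 to 254 against S3, 0 to 5 and 0 to 2 for S4 against S3, and 2 to 18 and 0 to 2 for the step. Without S5 replicate 3, 287 of the 412 called probes (69.7%) were called in the same direction, and without S5 replicate 2, 227 (55.1%).

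Replicate numbers were not taken as pairs, since only 6 of 13 same-numbered pairs correlated above 0.1 (range -0.321 to 0.528). That 9 of 14 arrays matched their own number best is a hint of pairing from the data. Per the study's methods, each intestine was cut into all the segments, and each segment was then pooled across fish. Pools with the same number may therefore come from the same fish, but the sources used here do not say whether they do. The main fit took the arrays as independent. With the replicate block, 203 were higher and 160 lower, and 307 of the called probes (74.5%) were called in the same direction. In that fit 44 were lower against S4, 3 were higher in S4 than in S3, and 5 and 0 were past the step test. No named gene changed direction with a call under any alternative. Among the 12 highest and 12 lowest genes, fabp6 and ca2 were not called in the Cy5 channel alone, dab2 and prlra in the authors' table, slc15a2, slc15a1b, pla2g12b, plin2 and plin3 under scaling, slc15a2 also with S3 and S4 merged, and ppp1r3cb with median centring. Of 27 alternatives, sdr16c5b and acta2 were not called in 21, and cyp2ad2, cyp2n13, smc4, cp and aqp8a.1 in 18 each. Averaging spots of the same sequence was not run. Saturated spots limit fabp6, ctsl.1, lgmn, fabp2, apoa1a, apoa4a, fads2 and the pancreas genes. Dim Cy5 spots in S3-S4 limit foxd1, pnp6, prlra, slc1a1, hoxc3a, atp6v1c1b, capgb and slc2a8.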
